A study of Mus musculus with 28 samples.

Results

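The genes for the proteins of the cytosolic ribosome were followed in the frontal cortex of aged mice carrying the Q331K substitution in TDP-43, an RNA-binding protein encoded by Tardbp. Members were chosen by name, as gene symbols of the Rps, Rpl, Rpsa and Rplp series without pseudogene labels, and by a mean of at least 1 count per 1e6 counted reads (CPM) over all libraries. Among 25900 genes such a name was found 84 times, and 81 genes reached the level, 33 of the small and 48 of the large subunit. All 81 also passed the count filter of the statistical fit. Tissue came from knock-in mice on the C57BL/6 background, aged 20 months, and polyA RNA was sequenced in 28 libraries. The genotypes were +/+ (wild type, WT, 8 libraries), Q331K/+ (heterozygous, HET, 10 libraries) and Q331K/Q331K (homozygous, HOM, 10 libraries). The labels give no sex, litter or batch and do not say whether libraries came from separate animals. P-values therefore describe only how these libraries varied, and part of that variation may be technical.

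The ribosome translates mRNA into protein. Its small subunit reads the mRNA and its large subunit joins the amino acids, each built of ribosomal RNA and a set of proteins that are mostly needed in equal number. Most mammalian ribosomal protein mRNAs begin with a run of pyrimidines, the 5′ terminal oligopyrimidine (5′ TOP) motif, through which mTORC1 and LARP1 control their translation. Ribosomal protein mRNAs are also transported into axons and dendrites, and TDP-43 is known to bind many neuronal mRNAs.

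The start regions of 6 of the 8 genes that passed the test in HOM, and of the paralog pair Rpl22 and Rpl22l1, are shown because the family is known for pyrimidine runs at the start, and they show how far the listed starts differ in this. Each runs from 60 bases before to 30 bases from the RefSeq start on, 5′ to 3′ on the gene's strand (build GRCm38.p6). Capitals mark the longest run of C and T that overlaps the 30 bases either side of the start.
Rpl31: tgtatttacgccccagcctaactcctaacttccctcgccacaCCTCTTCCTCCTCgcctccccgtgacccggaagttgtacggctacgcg
Rps15: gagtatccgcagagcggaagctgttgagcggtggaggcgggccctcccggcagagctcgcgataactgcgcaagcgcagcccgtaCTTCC
Rps18: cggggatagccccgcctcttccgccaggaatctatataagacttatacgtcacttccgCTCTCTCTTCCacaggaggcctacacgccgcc
Rpl10a: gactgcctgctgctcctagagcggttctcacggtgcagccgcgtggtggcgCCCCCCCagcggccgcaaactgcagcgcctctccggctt
Rpl18: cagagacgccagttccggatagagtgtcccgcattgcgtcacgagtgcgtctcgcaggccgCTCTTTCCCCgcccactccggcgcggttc
Rpl41: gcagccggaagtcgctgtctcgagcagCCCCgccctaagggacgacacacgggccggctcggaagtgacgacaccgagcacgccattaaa
Rpl22: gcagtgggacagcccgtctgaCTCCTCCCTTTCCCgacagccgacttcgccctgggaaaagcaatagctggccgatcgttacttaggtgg
Rpl22l1: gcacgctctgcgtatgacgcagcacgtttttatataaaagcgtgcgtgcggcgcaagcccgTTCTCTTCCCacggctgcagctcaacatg
In genome order these windows lie at chr1:39367791-39367880 (Rpl31, plus strand), chr3:28805448-28805537 (Rpl22l1, plus), chr4:152325666-152325755 (Rpl22, plus) and chr7:45718011-45718100 (Rpl18, plus). The others are chr10:80292371-80292460 (Rps15, plus), chr10:128549139-128549228 (Rpl41, minus), chr17:28328411-28328500 (Rpl10a, plus) and chr17:33955636-33955725 (Rps18, minus).

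The run of Rps15 goes on past the last base shown and holds 11 bases in all, while Rpl41 has no run longer than 4 bases around the listed start. Of the 81 members 60 had a RefSeq start region, and the first start of each gene was used. A run of at least 10 pyrimidines overlapped the 30 bases either side of the start in 30 of 60 members (50%), against 13.8% of 27025 genes. The median longest run was 9.5 bases in the members and 6 over those genes. CCGGAAG, sought on both strands of the 300 bases from 250 before the start, was in 24 members (40%) and in 9.12% of those genes. CTTTCC, sought on the sense strand, was in 21 members (35%) and in 14% of those genes, and it can lie within a pyrimidine run. AAGATGG on both strands was in 9 members (15%) against 6.48%, and TATAAA on the sense strand in 6 (10%) against 8.88%. These matches describe the letters of the windows, and the starts used in the cortex were not measured.

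Total counts per library ran from 30.5 M to 74.9 M (M for 1e6 reads) with a median of 53.5 M, and the HOM libraries 2 and 1 were the shallowest at 30.5 M and 32.8 M. Each of the 378 pairs of libraries differed by more than sampling noise (chi-square over degrees of freedom of at least 6.12). Tardbp averaged 320 CPM in the WT libraries (SD 13.1), 328 in HET (SD 13.6) and 350 in HOM (SD 18.4), and rose in HOM over WT by 0.12 on the log2 scale (SE 0.03, adjusted p = 0.0185, edgeR). The counts do not separate the alleles and so do not check the labels. HOM 1 and HOM 2 stood apart in the members' levels: HOM 2 was the highest of the 28 libraries in 50 of 81 members, and HOM 1 the lowest in 25 and the highest in 9. HOM 2 was also highest outside the family. Respiratory chain and ATP synthase genes summed to 10628 CPM there, against at most 9698 in WT and 9769 in HET. Proteasome genes summed to 2871 CPM, against at most 2753 and 2720. For mitochondrial ribosomal protein genes HET 10 was higher, at 1995 CPM against 1985.

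The ribosomal protein genes together took 1.12% ± 0.0273 of all counted reads in WT, 1.14% ± 0.0358 in HET and 1.18% ± 0.0636 in HOM (SD over libraries). The highest WT library reached 1.16% and the WT median was 1.12%, the HET libraries ran up to 1.21% with a median of 1.14%, and the HOM libraries from 1.09% to 1.33% with a median of 1.18%. The groups overlapped over nearly the whole WT range, with HOM 2 far above every other library and HOM 7 and HOM 1 among the low ones. Small subunit genes accounted for 0.468% of reads in WT and 0.492% in HOM, and large subunit genes for 0.653% and 0.688%. The HOM mean exceeded the WT mean by 0.0417 to 0.0676 percentage points with each library left out in turn, and the HET mean by 0.00882 to 0.0229. In bulk tissue fewer cells of a type and less RNA per cell cannot be told apart, and this holds for every level given here.

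**Figure D1:**
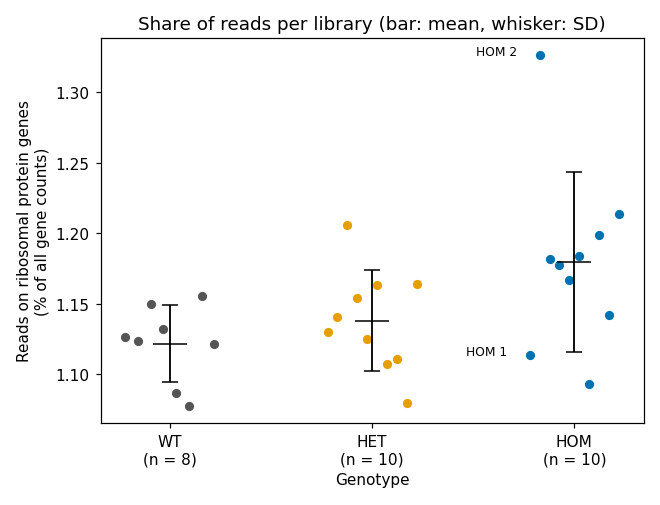
Share of all counted reads that fell on the 81 ribosomal protein genes, in percent, for each WT (n = 8), HET (n = 10) and HOM (n = 10) library; bars are means and whiskers SD. The HOM mean of 1.18% lies above the WT mean of 1.12%, and HOM 2 at 1.33% is the highest library; the axis does not start at 0.

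HOM and WT differ by 2 mutant alleles. Of the 81 genes 8 rose in HOM and none fell (9.88%), where 7.61% of all 16110 genes tested were called, 3.9% as higher and 3.71% as lower (adjusted p under 0.05, edgeR quasi-likelihood test with Benjamini-Hochberg adjustment over all genes). Among the 8 were Rpl31, Rps15, Rpl41, Rps14, Rps18, Rpl10a and Rpl18, all encoding structural proteins of the ribosome. At an unadjusted p under 0.05, 29 members were higher and 2 lower, against 13.2% and 11.4% of all genes. Without WT 6, 19 members were higher at that p. Over all genes 3962 had an unadjusted p under 0.05 in either direction, and 3346 without WT 6. Most of the family had a small positive fold change: 70 of 81 (86.4%) had a log2 fold change above 0, with a median of 0.05, while 52.3% of all genes did, with a median of 0.01. The direction was much the same in both subunits, with 29 of 33 small subunit genes positive (median 0.06, 3 called) and 41 of 48 large subunit genes (median 0.05, 5 called). These counts come from 28 libraries that share their scaling, and members that move together in a library are not independent of each other.

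The number of members called moved with single libraries, as did the number of all genes called. It was 8 with all libraries and 2 without WT 6, 3 without WT 2, 4 without WT 3, WT 8 or HOM 10, and 5 without WT 4, WT 5, HET 6 or HOM 2. It was 16 without HOM 7, the HOM library with the lowest share. Of all genes tested, 629 were called higher with all libraries, 297 without WT 6, 361 without WT 2, 392 without WT 3, 473 without WT 8 and 450 without HOM 10. The whole-table number was 583 without WT 4, 543 without WT 5, 509 without HET 6, 473 without HOM 2 and 649 without HOM 7. Without both HOM 1 and HOM 2 there were 3 members higher and 1 lower (428 and 448 over all genes), 70 of 81 fold changes were still positive and their median was 0.05. Without HOM 2 alone 65 were positive with a median of 0.04.

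Rpl31, a protein of the large subunit near the exit of the peptide tunnel, had the smallest p. Its level ran from 183 to 208 CPM in WT (median 196), from 190 to 217 in HET (median 201) and from 189 to 259 in HOM (median 217). The HOM libraries were mostly above WT, 8 of 10 exceeding the maximum of WT and 9 of 10 its mean. Means were 195 ± 8.84 CPM (WT, n = 8) and 221 ± 20.5 (HOM, n = 10), and the log2 fold change was 0.18 (SE 0.04, adjusted p = 0.0107, edgeR). Rpl31 was the only one of the 8 to stay called with each of the 28 libraries left out in turn and under the other 13 settings tried, where its log2 fold change stayed between 0.13 and 0.20. It was called without HOM 1 and HOM 2 as well (0.13, adjusted p = 0.0305, edgeR). The gene lies at 39367851 to 39371908 on the plus strand of chromosome 1 (GRCm38). Its exons overlap those of Tbc1d8 on the other strand over 420 bases, and the strand setting of the counting is not given in the sources used here.

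Rps15, a small subunit protein of the head domain, ran from 232 to 270 CPM in WT (median 248), from 244 to 270 in HET (median 257) and from 259 to 319 in HOM (median 266). Every HOM library exceeded the WT mean, but only 3 of 10 exceeded the maximum of WT. The log2 fold change was 0.13 (SE 0.04, adjusted p = 0.0243, edgeR). The call ended without WT 2 or without WT 6, where the adjusted p of edgeR reached 0.0646, and without HOM 1 and HOM 2 together (0.10, adjusted p = 0.0516).

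Rpl41 encodes a very short basic peptide of the large subunit and had the largest fold change of the family. Its level was 107 ± 22.4 CPM in WT, 133 ± 33 in HET and 163 ± 42.2 in HOM, a log2 fold change of HOM over WT of 0.61 (SE 0.17, adjusted p = 0.0278, edgeR). The libraries did not spread evenly. In WT 6 libraries lay between 87.5 and 101 CPM, while WT 2 stood at 123 and WT 6 at 156. In HET 5 libraries lay between 101 and 109 CPM and the other 5 between 143 and 177. In HOM the libraries 6 and 9 stood at 98.2 and 101 CPM, HOM 2 at 128, and the other 7 between 151 and 221. High and low libraries thus occurred in every genotype. The call ended without WT 3 or without HOM 10, with an adjusted p of up to 0.051 (edgeR), and held without HOM 1 and HOM 2 (0.65, adjusted p = 0.0313). Of the 50-base stretches of its mRNA 53.1% also occur, on either strand, in transcripts of other genes. Part of its reads may thus have been placed elsewhere or come from there, which was not tested.

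Rps14, Rps18, Rpl10a and Rpl18 rose by similar small amounts. Rps14, a protein of the small subunit's platform, went from 197 ± 10.1 CPM in WT to 217 ± 16.9 in HOM (log2 fold change 0.13, adjusted p = 0.0361, edgeR), with 9 of 10 HOM libraries above the WT mean. Rps18, a protein of the small subunit head, went from 138 ± 4.48 to 153 ± 16.2 CPM (0.14, adjusted p = 0.0434), with 8 of 10 above the WT mean. Rpl10a, which forms a mobile stalk of the large subunit, went from 82.7 ± 3.47 to 90.6 ± 7.53 CPM (0.13, adjusted p = 0.0461), with 10 of 10 HOM libraries over the WT mean. Rpl18 went from 68.5 ± 3.36 to 74.4 ± 3.91 CPM (0.12, adjusted p = 0.0474), again with 10 of 10 over the WT mean. The groups overlapped in all 4 genes. The call of Rps14 ended with any of WT 2, 6, 7 or 8, HOM 2 or HOM 4 left out. Those of Rps18, Rpl10a and Rpl18 ended with any of 15, 15 and 18 single libraries left out. Without HOM 1 and HOM 2 together Rps18 stayed called (0.11, adjusted p = 0.0192, edgeR). Rps14 (0.10, adjusted p = 0.0664), Rpl10a (0.07, adjusted p = 0.126) and Rpl18 (0.09, adjusted p = 0.124) did not in that edgeR fit. Exons of Rps18 overlap Vps52 and those of Rpl18 overlap Sphk2 on the other strand.

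The 16 members with the next smallest p did not pass the test and are given as values. Of these 14 had positive log2 fold changes, among them Rps7 0.07 (adjusted p = 0.0571, edgeR), Rpl19 0.09, Rpl37 0.16, Rplp0 0.10, Rpl26 0.14, Rps16 0.11, Rpl12 0.08, Rpsa 0.08, Rps4x 0.08, Rpl13a 0.08, Rps26 0.09 and Rps3 0.07. Rplp0, the scaffold of the acidic stalk and a common reference gene in quantitative PCR, ran from 135 to 154 CPM in WT (median 149) and from 148 to 176 in HOM (median 158), with 10 of 10 HOM libraries over the WT mean. Rpsa, which doubles as a laminin receptor, ran from 298 to 351 CPM in WT and from 322 to 364 in HOM.

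The other 2 of the 16 were negative. Rpl15 ran from 78.5 to 103 CPM in WT (median 83.4), from 70.9 to 80.3 in HET (median 77.3) and from 71.9 to 90.3 in HOM (median 76.8). Its HET libraries were close together and low, and 6 of 10 HOM libraries were lower than any WT library, with WT 1 and HOM 10 highest in their groups. The log2 fold change was -0.13 in HOM (SE 0.04, adjusted p = 0.0529, edgeR) and -0.14 in HET (adjusted p = 0.366). Rpl15 was called lower in HOM under 5 of the 13 other settings, with DESeq2 (adjusted p = 0.0311) and limma voom (adjusted p = 0.03) among them, and without WT 2, WT 4, HET 2, HET 4, HOM 5 or HOM 10. Exons of Rpl15 overlap those of Nkiras1 on the other strand. Rps4y2, which the reference calls Rps4l, was low everywhere, from 5.95 to 10.4 CPM in WT and from 5.03 to 8.38 in HOM, and no HOM library lay above the WT mean (log2 fold change -0.32, adjusted p = 0.0788, edgeR). It was called lower with DESeq2 (adjusted p = 0.0467), with limma voom (adjusted p = 0.0361), without HOM 1 and HOM 2, and without WT 5. The remaining 9 negative members were Rpl17, Rpl39, Rpl24, Rps15a, Rps27l, Rpl22l1, Rps25, Rpl22 and Rplp2, from -0.07 to -0.01.

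**Figure D2:**
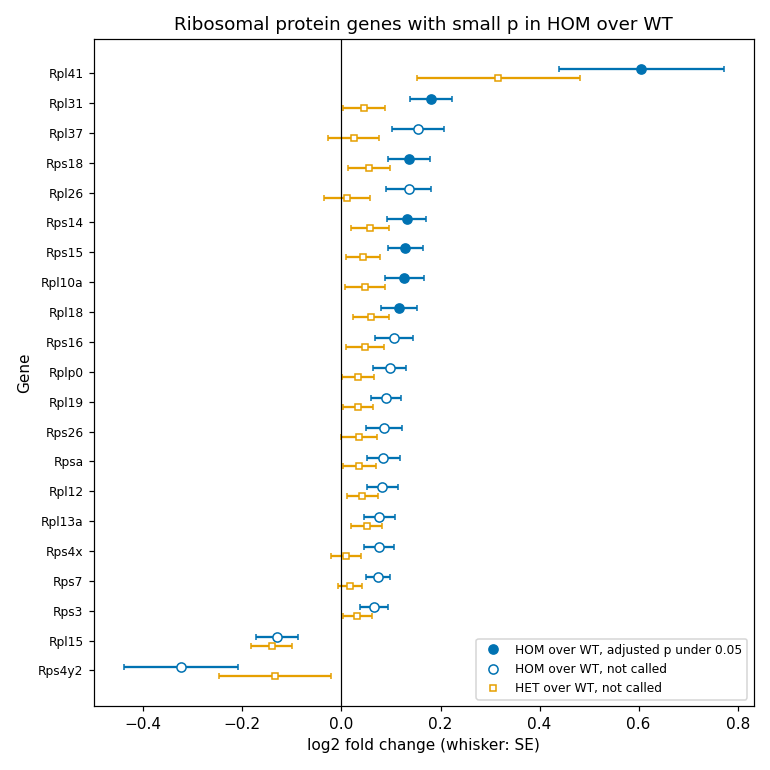
Log2 fold changes of HOM over WT (circles, filled where the adjusted p is under 0.05) and HET over WT (squares) for 21 of the 24 members with the smallest p in HOM over WT, with SE as whiskers. The 7 filled circles lie above 0, and Rpl15 and Rps4y2 lie below 0 for both genotypes; both comparisons use the same WT libraries.

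Among heterozygotes no member was called against WT, higher or lower, and neither was any of the 16110 genes (0.0% called). At an unadjusted p under 0.05 edgeR gave 1 member higher and 1 lower, against 4.95% and 4.66% of all genes. DESeq2 and limma voom called no member after adjustment either, but 12 and 14 genes of the whole table. Of the members' log2 fold changes 58 of 81 were positive (median 0.02, against 0.00 for all genes). The number positive was 49 without WT 6 or HET 4 and 50 without WT 5 or HET 3, each with a median of 0.01, and 60 without HET 9 with a median of 0.03. Rpl31 had a log2 fold change of 0.05 in HET, Rps15 0.04, Rpl41 0.32, Rps14 0.06, Rps18 0.06, Rpl10a 0.05 and Rpl18 0.06, none past the threshold. The HET and HOM comparisons share the WT libraries, so these values stand beside those of HOM and are not independent of them.

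Between HOM and HET no member was called by edgeR either, where 0.0372% of all genes were, 0.0124% as higher and 0.0248% as lower. At an unadjusted p under 0.05 13 members were higher and none lower, against 4.79% and 3.75% of all genes. DESeq2 and limma voom called no member after adjustment, but 40 and 42 genes of the whole table. Of the members' log2 fold changes 72 of 81 were positive (median 0.04, against 0.00 for all genes). Without HOM 2 only 60 were positive, with a median of 0.02, and 6 members were higher at the unadjusted p. That number was 8 without HET 9, 20 without HOM 7 and 22 without HOM 1. Over all genes 1375 had an unadjusted p under 0.05 in either direction, against 1323 without HOM 2. The whole-table number was 1248 without HET 9, 1584 without HOM 7 and 1648 without HOM 1. Rpl31 had 0.14 (SE 0.04, adjusted p = 0.277, edgeR) and Rpl41 0.29 (SE 0.15, adjusted p = 0.629). A slope on the number of mutant alleles called 10 members higher and none lower, where 7.78% of all genes were called, 3.99% as higher and 3.79% as lower. They included the genes named above and Rps7 (0.04 per allele, adjusted p = 0.0487, edgeR). This fit uses the same libraries and is not separate evidence. The slope's count was 3 without WT 6, 4 without WT 2 or WT 8, 5 without HOM 10, 6 without WT 3, WT 5 or HOM 2, and 16 without HOM 7. Over all genes the slope called 643 higher with all libraries, 343 without WT 6, 420 without WT 2, 542 without WT 8, 474 without HOM 10 and 676 without HOM 7. The whole-table number was 449 without WT 3, 564 without WT 5 and 520 without HOM 2.

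Within a genotype the levels of most members were steady between libraries. The median coefficient of variation (SD over mean) was 4.19% in WT, 4.72% in HET and 8.17% in HOM, and 4.68% in HOM without libraries 1 and 2, a setting chosen after seeing the data. In the fit the members' median biological coefficient of variation was 6.1%, against 6.84% for all genes. Rpl4 had the smallest variation in WT, 1.85% around 440 CPM.

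The 2 shallow HOM libraries deviated in different ways. HOM 2 had a median log2 deviation of 0.23 from the WT mean and lay above that mean in 69 of 81 members, while HOM 1 had a median of -0.03 and lay above it in 37. Rplp2, a stalk protein, stood at 61.6 CPM in HOM 1 and 129 in HOM 2, on either side of the WT range of 87.5 to 99.4. Rps12 likewise stood at 49.5 and 108 CPM around a WT range of 68.7 to 80.4, and Rpl39 at 44.1 and 95 around 68.9 to 86. The order was opposite for Rpl29, at 65.7 CPM in HOM 1 and 38.8 in HOM 2. Their part in the group differences is shown above by the values without them. HOM 7, of ordinary depth, lay above the WT mean in 16 members, whereas the remaining HOM libraries did so in 57 to 76.

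**Figure D3:**
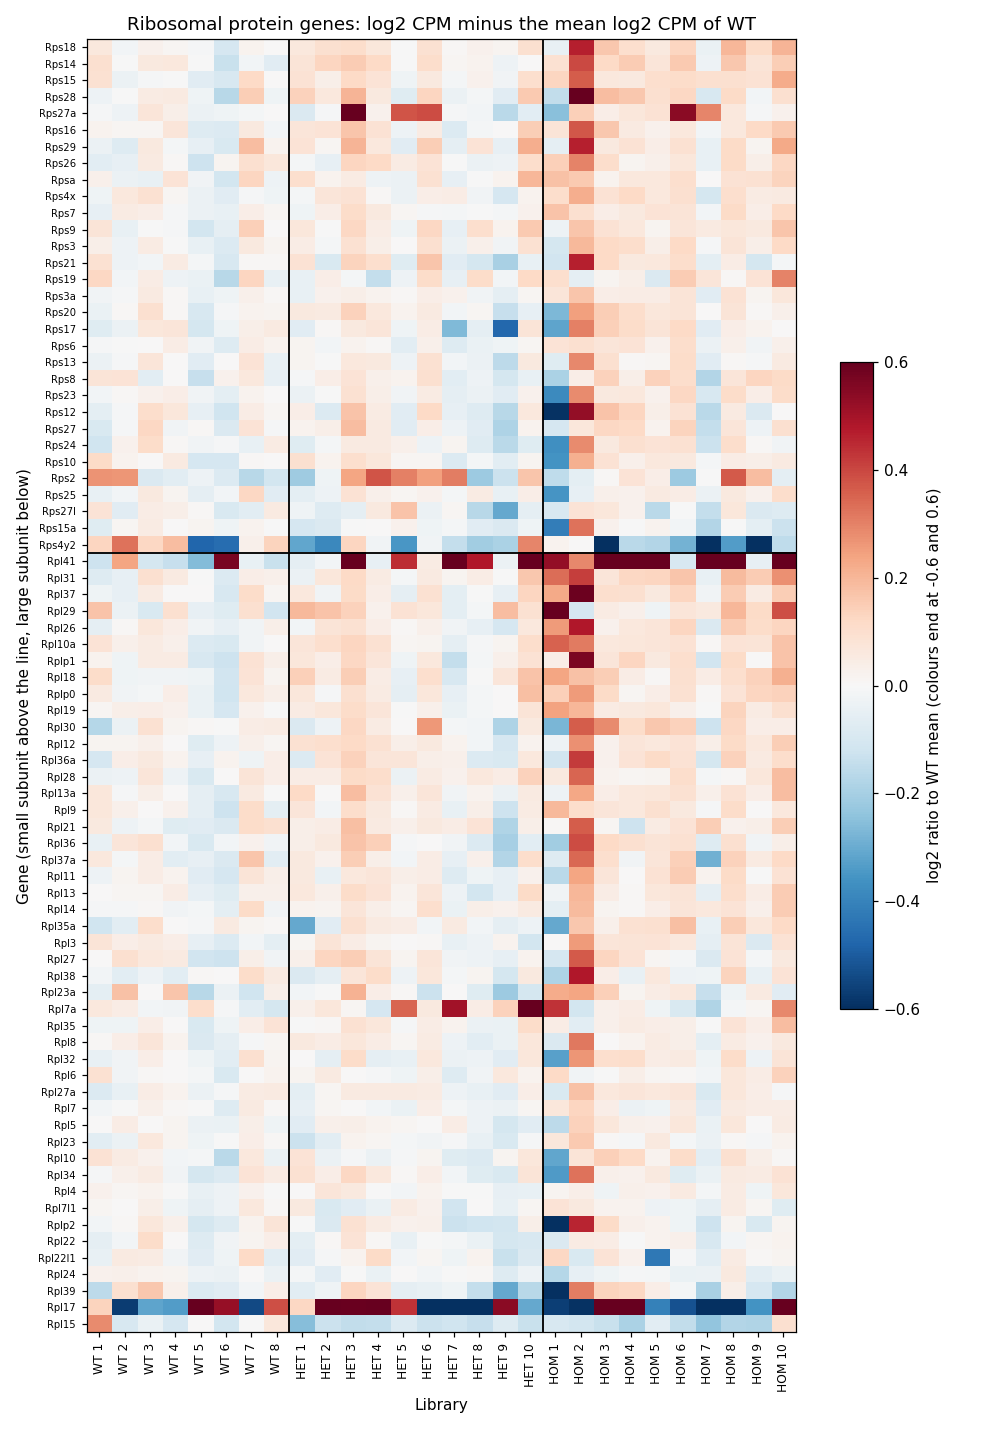
Log2 ratio of each member's CPM to its mean log2 CPM in WT, with 78 members as rows (small subunit above, large below, each ordered by fold change in HOM) and the 28 libraries as columns; colours end at -0.6 and 0.6. HOM 2 is red in most rows, HOM 1 is mixed, and Rpl41, Rpl17 and Rps2 differ between single libraries within each genotype.

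A few genes did not follow the rest of the family but had wide or split levels across libraries. Rpl17, a large subunit protein that lines the peptide tunnel, ran from 18.6 to 45.5 CPM in WT, from 14.2 to 54.5 in HET and from 17 to 51 in HOM, with coefficients of variation of 35.4%, 43.9% and 50.5%. No library lay between 22.3 and 30 CPM, and 4 WT, 6 HET and 3 HOM libraries lay above that gap. Its log2 fold change in HOM was -0.07 with an SE of 0.30, so that only large differences could have been detected (adjusted p = 0.911, edgeR).

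Rps2, a small subunit protein of the mRNA entry, ran from 79.1 to 107 CPM in WT and from 76.3 to 115 in HET, and 2 WT, 6 HET and 2 HOM libraries lay at 99.6 or above with none between 93.9 and that level. Rps27a, which is made as a fusion with ubiquitin, was tight in WT at 114 to 123 CPM, while 3 HET and 2 HOM libraries lay between 143 and 179. Rpl7a was also tight in WT at 22.7 to 26.3 CPM, with 3 HET and 2 HOM libraries between 29.8 and 39.8. The library sets differed from gene to gene. Of the 50-base stretches of the Rpl17 mRNA 78.7% occur, on either strand, in transcripts of other genes. For Rpl7a this was 81.2%, shared with 123 other genes. The part of such sharing in these values was not tested.

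**Figure D4:**
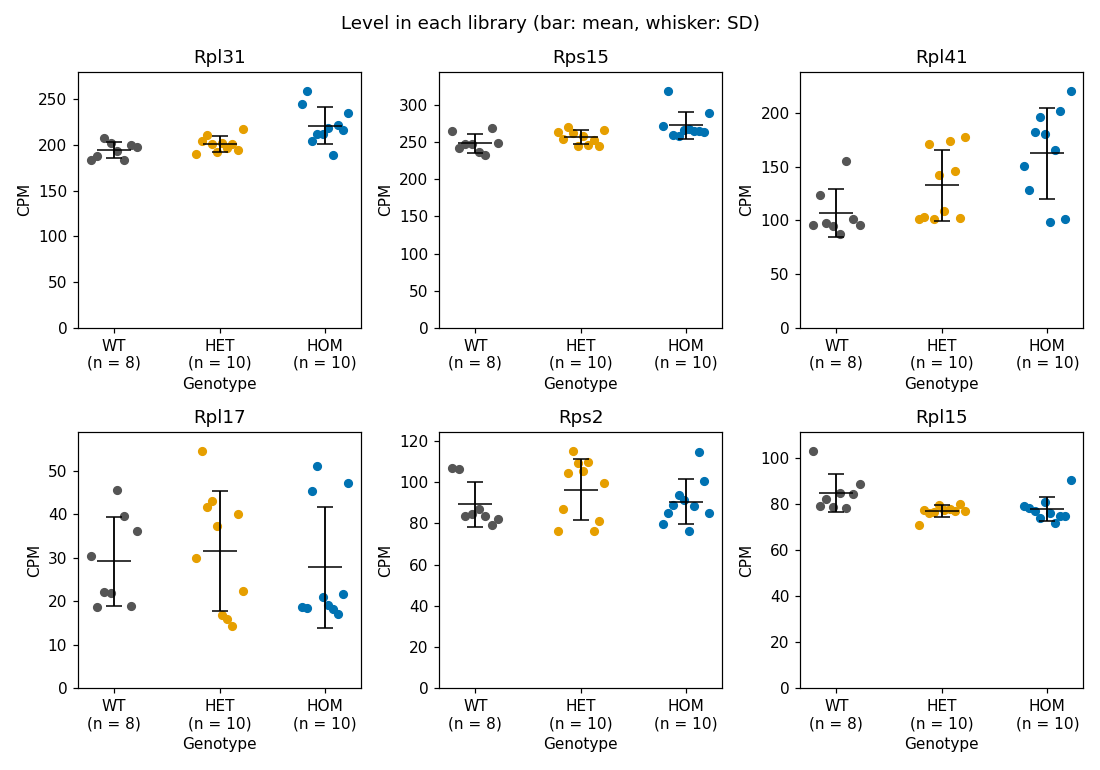
CPM in each library for 6 members by genotype, with means as bars and SD as whiskers (WT n = 8, HET n = 10, HOM n = 10). Rpl31 and Rps15 shift by a small amount in HOM, Rpl41 and Rpl17 split into high and low libraries within genotypes, Rps2 spreads widely in each, and Rpl15 is lower on average in HET and HOM than in WT.

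Levels differed far more between genes than between genotypes. Exons of each gene were merged over the GENCODE basic set, for coding genes over their protein-coding transcripts only. Levels were taken as CPM per kb of these exons, mean of 28 libraries. The highest were the stalk protein Rplp1 at 715, Rps29 at 551, Rps15 at 413, Rpl26 at 321 and Rpl19 at 294. The lowest were Rps4y2 at 8.02, Rpl7l1 at 12, Rps27l at 12.8, Rpl21 at 14.5 and Rpl18 at 21. Of these 10, Rps15 and Rpl18 are among the genes called in HOM, and Rpl18 stood at 106 per kilobase of its coding transcript, rank 63 of 80 on that scale.

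Per kilobase of 1 coding transcript (the shortest in the consensus coding set where one exists, matched for 80 members) the range from Rps27l at 14.9 to Rplp1 at 715 was 48-fold, with a median of 181. The proteins are mostly present in equal number in a ribosome. Of the 80 transcripts 79 shared at least 1 stretch of 50 bases with another gene. At least 50% of the stretches were shared in 53, and the median was 61.4%. Matches on either strand counted, so genes whose exons overlap a member's exons can be among the other genes. The median level was 184 CPM per kb in those 53, and the part of read placement in these levels was not tested.

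**Figure D5:**
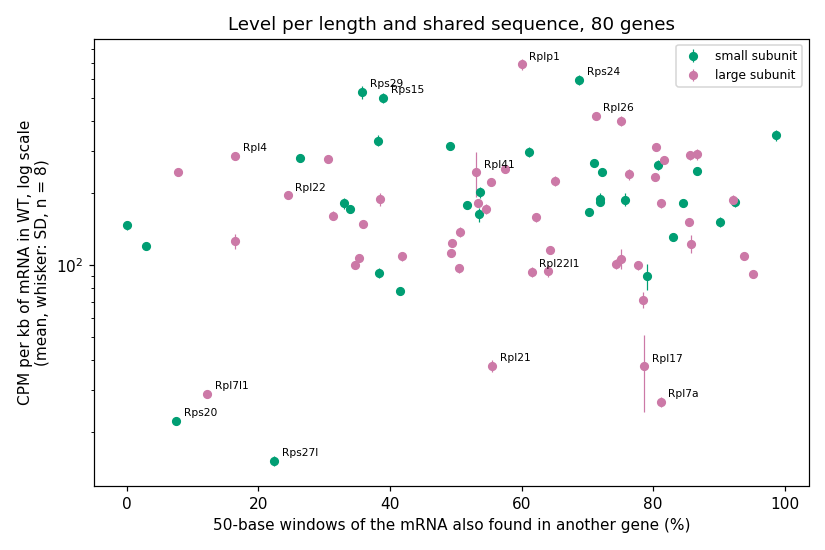
CPM per kb of mRNA in WT (log scale, mean with SD, n = 8) against the percentage of shared sequence, for 80 members coloured by subunit. Shared are 50-base stretches of the mRNA that also occur, on either strand, in another gene. Rplp1 and Rps24 are highest with 60% and 68.7% of their sequence shared, Rpl7a and Rpl17 are low with most of it shared, and Rps27l is low with little shared.

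The paralogs with -like names were lower than their partners on this per-kilobase scale. Rpl22l1 stood at 92.4 CPM per kb against 194 for Rpl22, Rpl7l1 at 28.8 against 181 for Rpl7, and Rps27l, an RPS27 paralog known as a p53 target, at 14.9 against 351 for Rps27. Rpl22l1 ran from 46.7 to 53.2 CPM in WT and from 36.4 to 53.3 in HOM, and Rpl22 from 87.8 to 99.9 and from 86.5 to 95.8, overlapping in both cases. No -like paralog was called in any comparison. At the level used to choose members, Rpl10l (0 CPM), Rpl39l (0.0332) and Rpl3l, a heart and muscle form (0.253), fell below 1 CPM, and Rps27l (7.43) and Rps4y2 (7.56) were the lowest inside it.

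Names needed care in 2 cases. The row named Rpl24 carries the identifier ENSMUSG00000022601, which the reference gives to Zbtb11, and its span on chromosome 16 (55966275 to 56008913) covers both genes, so its level of 186 ± 3.59 CPM in WT may hold reads of both. Exons of 14 members overlap a protein-coding gene on the other strand. The naming rule also leaves out Gnb2l1, the ribosomal scaffold RACK1, and genes such as Fau and Rpl36al, which encode ribosomal proteins under other names. All 4 such genes had positive log2 fold changes in HOM (median 0.09), and Gnb2l1 rose by 0.12 (SE 0.03, adjusted p = 0.0225, edgeR), from 153 ± 3.87 to 168 ± 11.4 CPM.

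Genes that work with the ribosome were mostly not called in HOM, and neither were 73 of the 81 members and 14884 of all 16110 genes. Of 16 other mRNAs known to carry a 5′ TOP motif none was called, 11 were positive and the median was 0.02. Of 40 translation factors 15 were positive (median -0.02), none rose and 1 fell, Eif4a2, a helicase of the cap-binding complex (-0.08). Of 52 ribosome biogenesis genes 21 were positive (median -0.02). In that list Nvl rose (0.10) and Gnl3l (-0.13), Ncl (-0.09) and Nop14 (-0.10) fell, of which Ncl encodes the nucleolar protein nucleolin.

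Of 19 genes of mTORC1 and 5′ TOP control Larp4 (-0.16) and Tsc1 (-0.09), an inhibitor of mTORC1, fell and none rose. In that list 9 were positive. Of 19 ribosome quality control genes Usp10, a deubiquitinase of stalled ribosomes, rose (0.10), and 15 were positive (median 0.02). Among 76 mitochondrial ribosomal protein genes Mrps35 rose (0.19) and Mrpl1 fell (-0.13), 40 were positive and the median was 0.00. Of 80 respiratory chain and ATP synthase genes tested 44 were positive (median 0.00), and Uqcrc2 (-0.08) and Atp5l (-0.11) fell. Of 38 proteasome genes tested none was called and 18 were positive (median -0.01). These counts stand beside 3.9% higher and 3.71% lower over all genes, and no test compared the lists with each other.

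Some markers of several cell types were called in the same comparison, where 3.9% of all genes were called higher and 3.71% lower. The 10 microglial markers summed to 437 to 511 CPM in WT and 486 to 624 in HOM and 6 rose, among them Csf1r (0.22) and Tmem119 (0.34). The 10 endothelial and mural markers summed to 290 to 326 and 301 to 366 CPM and 4 rose, and the 10 meningeal fibroblast markers summed to 53.2 to 102 and 67.2 to 229 CPM and 2 rose. Of 8 astrocyte markers 2 rose, Gja1 (0.21) and Aqp4 (0.28), with sums of 5285 to 6173 CPM in WT and 5479 to 6483 in HOM. Log2 fold changes were positive in 9 of 10 microglial markers (median 0.19) and 10 of 10 endothelial and mural markers (0.16). They were positive in 10 of 10 meningeal fibroblast markers (0.60) and 8 of 8 astrocyte markers (0.11), against 52.3% of all genes. Of 12 neuronal markers 2 fell, Gad1 (-0.23) and Pvalb (-0.28), with sums of 11674 to 12338 and 11258 to 12726 CPM. Of the 12, 3 had positive log2 fold changes, and Slc17a7 averaged 1143 CPM in WT and 1203 in HOM. None of the markers in these lists was at 0, and their part in the ribosomal protein levels was not tested. Of 8 markers of oligodendrocytes and their precursors 1 rose and 3 were positive. None was called among 9 choroid plexus and ependyma, 8 striatal neuron and 3 red blood cell markers. Of these lists 7, 3 and 1 markers had positive log2 fold changes. The striatal markers varied widely between libraries, summing to 199 to 652 CPM in WT and 222 to 532 in HOM.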

How the data were processed

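The authors deposited raw read counts per gene for 28 libraries, whole numbers that they did not normalise. Per the submitters' processing notes, Trim Galore 0.4.3, HISAT2 2.0.5 and GRCm38 were used, and per the labels' protocols libraries were made with a stranded polyA kit. How reads were counted, with which strand setting and on which annotation release, is not given in the sources used here. Without the strand setting, reads of genes that overlap on opposite strands cannot be told apart, and reads of near-identical copies may be lost or shared.

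The table held 25965 rows, and the 57 identifiers in several rows were summed, giving 25900 genes. Levels are CPM of the total count. The tests used the two-sided quasi-likelihood test of edgeR 4.0.16 (R 4.3.3; filterByExpr, TMM, robust glmQLFit) in 1 fit of 28 libraries, and p-values were adjusted over 16110 genes with a threshold of 0.05. A second fit took the number of alleles as a slope. Members, lists and tests were chosen with earlier results of these data known. Named genes are the called members, the 24 with the smallest p in HOM against WT, the 5 highest and 5 lowest per exon length, the -like paralogs, those at the level limit and up to 4 called genes of each list; Rpl17, Rps2, Rps27a, Rpl7a, Rpl4, Rplp2, Rps12, Rpl39, Rpl29 and Rps24 were named after their values were seen. A few genes that this names are not reported here, but they stay in the counts.

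Exons, transcripts and shared 50-base stretches came from GENCODE vM21 and start regions from RefSeq (GRCm38.p6). Stretches were matched on either strand. On counts simulated for HOM against WT (16063 genes) 22% of 50 genes changed 1.1-fold were recovered and 58% of 50 changed 1.2-fold. Recovery was 88% of 50 changed 1.4-fold and 96% of 50 changed 2-fold, with 7 false among all 139 calls. The real counts gave 1226 calls, and the changed genes came from the whole table, so these rates do not carry over to the members. Other settings were DESeq2 1.42.0 or only its size factors, TMM without these genes, other count filters, limma voom 3.58.1, 2 surrogate variables (sva 3.50.0), fewer libraries, a replicate block and pseudogene rows added. Correlations of same-numbered libraries' deviations from their group means ran from -0.16 to 0.18. The best match had the same number in 0 of 8 WT and HOM pairs and 1 of 8 WT and HET pairs. For HET and HOM this held in 2 of 10 pairs. The labels do not say whether replicate numbers pair libraries, and these correlations cannot settle it.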

Additional observations from a re-analysis of the deposited data

Results flagged for a closer look

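In each genotype the highest and lowest library was compared with its nearest neighbour relative to the group's range. Of 102 groups of values 16 had a library that stood apart. Chance flags about 1 in 20 independent groups. These groups share libraries and many of their members were picked by small p, so the rates cannot be compared. HOM 2 was such a library 11 times, always as the highest of HOM. It stood at 319 CPM for Rps15 (the next library at 290), 259 for Rps14 (220), 192 for Rps18 (159), 201 for Rpl37 (157), 176 for Rplp0 (162), 111 for Rps16 (96), 77.4 for Rps26 (69.5), 43.5 for Rpl21 (37.5), 507 for Rplp1 (386) and 284 for Rps29 (240), and its share of reads on the family was 1.33% (1.21%). Rps15 and Rps18 stayed called without HOM 2 (adjusted p of 0.0358 and 0.0493, edgeR), and Rps14 did not (adjusted p = 0.0543). Rpl15 was highest in WT 1 at 103 CPM, lowest in HET 1 at 70.9 and highest in HOM 10 at 90.3. Rpl22l1 was lowest of HOM in HOM 5 at 36.4 CPM, and Rpl21 was lowest of HET in HET 9 at 29.9.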

How the results depend on the processing

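Counts of called members depended on the setting, and the cause was not tested. Members higher in HOM than in WT numbered 8, against 15 with DESeq2, 5 with no count filter, 5 with limma voom, 2 with only the groups compared, 3 without HOM 1 and HOM 2 and 2 without WT 6 and HOM 3. With each library left out they ran from 2 to 16. The whole-table number higher moved as well, from 629 to 770 with DESeq2, 474 with no count filter, 683 with limma voom, 410 with only the groups compared, 428 without HOM 1 and HOM 2 and 247 without WT 6 and HOM 3. Members lower numbered 0, against 2 with DESeq2, 2 with limma voom and 1 with DESeq2 size factors. They numbered 1 with a filter of 1 CPM in 8 libraries and 1 without HOM 1 and HOM 2. The count was 1 with repeated rows kept apart and 0 to 1 with each library left out. Over all genes 597 were called lower, against 793 with DESeq2, 709 with limma voom and 604 with DESeq2 size factors. That number was 680 with the 1 CPM filter, 448 without HOM 1 and HOM 2 and 627 with repeated rows kept apart. The slope called 10 members higher, against 15 with DESeq2, 5 with limma voom and 4 without HOM 1 and HOM 2. Its number was 4 without WT 6 and HOM 3 and 3 to 16 with each library left out. Over all genes it called 643 higher, against 789 with DESeq2 and 689 with limma voom. The whole-table number was 441 without HOM 1 and HOM 2 and 295 without WT 6 and HOM 3. Of the members the slope called 0 lower, against 1 with DESeq2, 2 with limma voom and 1 without HOM 1 and HOM 2. That number was 0 to 1 with each library left out. Over all genes it called 611 lower, against 808 with DESeq2, 706 with limma voom and 450 without HOM 1 and HOM 2. With the replicate block, whose numbers the labels do not explain, 4 members were higher in HOM than in WT. In that fit 371 genes of the whole table were called higher, against 629 without the block. No member was called in HET against WT or in HOM against HET under any of the 13 settings. None of the 24 members with the smallest p in HOM against WT changed sign in any setting. They were chosen by that p, and each setting refits the same libraries or part of them. A kept sign is therefore no separate support. In the simulated counts 22% of genes changed 1.1-fold were recovered. That simulation had 139 calls against 1226 here and drew its genes from the whole table, so this is not the members' rate.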
